A study of Mus musculus with 4 samples.

Results

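The sphingosine-1-phosphate (S1P) genes described here are 3 receptors (S1pr1, S1pr2 and S1pr3), both sphingosine kinases (Sphk1 and Sphk2), the exporter Spns2, the lyase Sgpl1 and the phosphatase Plpp3. They were chosen by symbol, and all 8 are among the 24873 genes listed in the table of normalized counts. All 8 also passed the filter on low values, a mean of at least 10 normalized counts over the libraries, which 20485 genes passed. Sphk1, with a mean of 5.81 in the control libraries, passed it only through the tamoxifen libraries.

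S1P is a lipid signal made inside cells when a sphingosine kinase phosphorylates sphingosine. Endothelial cells release it through SPNS2, and it acts on G protein-coupled receptors at the cell surface. In endothelium, S1PR1 signals through Gi and tightens the junctions between cells, whereas S1PR2 loosens them, and S1PR3 couples to several G proteins. The signal ends when PLPP3 removes the phosphate outside the cell or when SGPL1 cleaves S1P irreversibly inside it.

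RNA-Seq compared CD31+CD45- cells sorted from the cerebrum on day 9 with and without tamoxifen. All mice, controls included, carried VE-cadherin cre/ERT2, a tamoxifen-activated Cre driven by an endothelial promoter, and Mgp fl/fl, the floxed gene of an inhibitor of bone morphogenetic proteins. The control group (libraries C1 and C2) received no tamoxifen, so that tamoxifen itself and the deletion of Mgp cannot be told apart. The tamoxifen group (libraries A1 and A2) was injected at 10 weeks of age, once daily on 5 days, with 75 mg/kg. Each library was made from cells pooled from 3 mice, littermates served as controls, and both sexes were used. The sample labels write the genotype as Cdh5cre;Mgpflox/flox and call the cells tdTomato+, without CD31 or CD45. The letter A was read as the tamoxifen group because C stood for control.

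The libraries held between 35387438 and 49799321 reads assigned to genes, and 1 read was worth 0.719 to 1.37 normalized counts. Mgp itself stood at 1094 and 1352 normalized counts in C1 and C2 and at 945 and 909 in A1 and A2, and its log2 fold change of -0.39 ± 0.18 (SE) did not pass the test (limma, adjusted p = 0.0986). In the control libraries 12 endothelial markers summed to 1227533 and 1251490 normalized counts, far above the sum of any other marker list there. In the tamoxifen libraries the same markers summed to 217664 and 111173, all 12 were lower there than in either control library, and their median log2 fold change was -2.91. The 7 astrocyte markers rose from sums of 28811 and 34332 to 147559 and 307668, with all 7 above both control libraries and a median log2 fold change of 2.92. Markers of blood cells, fibroblasts, oligodendrocytes and dividing cells were also higher, each gene of these lists lying above both control libraries. The 7 neutrophil markers went from sums of 232 to 297 up to between 81197 and 108979, the 7 erythroid markers from between 16627 and 33680 to between 99749 and 155316, and the 6 fibroblast markers from between 2257 and 3213 to between 59759 and 69745. The 6 cell cycle genes went from between 1027 and 1198 to between 74012 and 76290, and the 6 lymphocyte markers, among which Cd3e had at most 3 reads in each control library, from between 77 and 98 to between 1881 and 2578. The 5 neuron markers summed to between 942 and 1210 in controls and between 8518 and 12608 after tamoxifen, with 3 of 5 above both controls, and the 6 oligodendrocyte markers to between 1103 and 1386 against 5345 and 5878. The 8 mural markers (25709 and 45539 against 31947 and 65597) and the 6 microglia and macrophage markers (1282 and 2452 against 3160 and 3061) moved less, with 2 of 8 and 4 of 6 above both controls, 1 mural marker below them, and medians of 0.68 and 1.09. No list held a gene with no reads in both control libraries. The part of these marker differences in the values below was not tested, and in bulk RNA fewer cells of a type and less RNA per cell cannot be told apart.

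Of the 8 genes, 7 were differentially expressed, which required a limma adjusted p below 0.05 together with a log2 fold change beyond 1 in either direction. S1pr2, S1pr3, Sphk1, Sgpl1 and Plpp3 were higher after tamoxifen, and S1pr1 and Spns2 were lower. By the same rule 44.7% of all tested genes were differentially expressed, 28.6% higher and 16.0% lower, so changes were common throughout these libraries. Scaling to equal totals changed the split of all calls to 7206 higher and 1838 lower, and quantile normalization to 4615 higher and 5509 lower, beside 5867 higher and 3284 lower. Without A1, 4 of the 8 genes and 5024 of all genes were called, and without A2, 4 and 4147, with S1pr1, S1pr2 and S1pr3 losing their calls in both cases. The 2 tamoxifen libraries lay on the same side of both control libraries for all 8 genes, as they did for 82.3% of all tested genes.

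**Figure D1:**
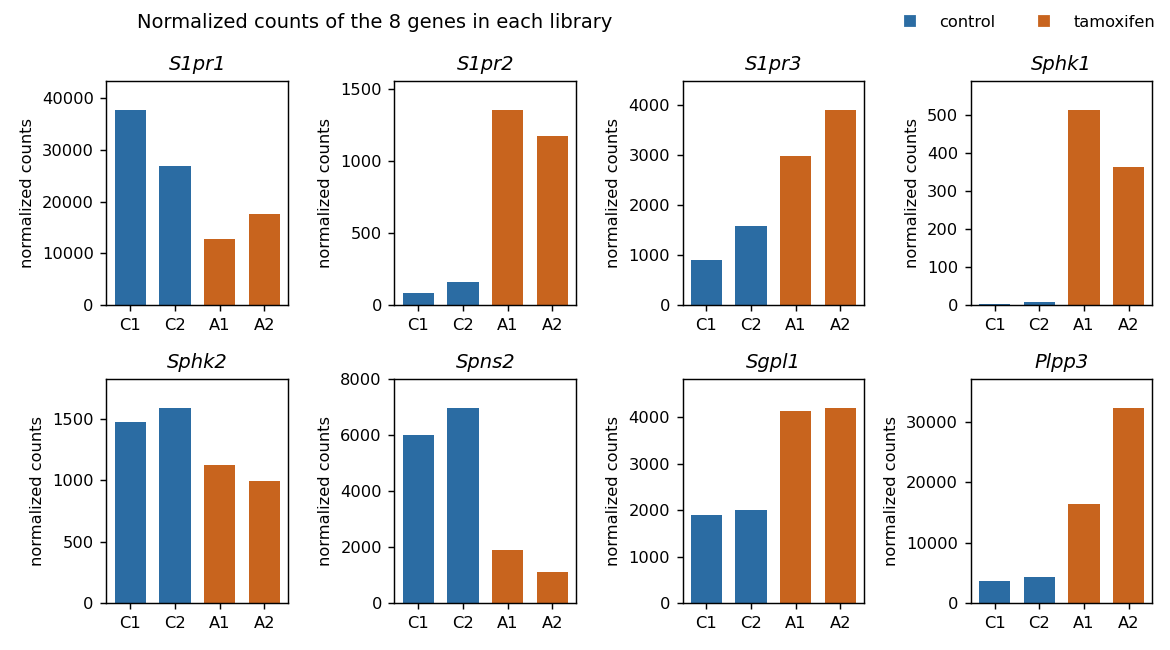
Normalized counts (y axis, each panel with its own scale from 0) of the 8 S1P genes in control libraries C1 and C2 (blue bars) and tamoxifen libraries A1 and A2 (orange bars). In every panel both orange bars lie on the same side of both blue bars, and the gap is widest in relative terms for Sphk1, at 4.11 and 7.51 against 514 and 363.

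Among the receptors, S1pr1 was the most abundant in all 4 libraries, and it was lower after tamoxifen while S1pr2 and S1pr3 were higher. S1pr1 (chr3:115504071-115508721, minus strand, GRCm39) encodes the main endothelial S1P receptor. It had 37610 and 26867 normalized counts in C1 and C2, and 12680 and 17625 in A1 and A2. Both tamoxifen libraries were below both control libraries, with a wide spread inside each group, C2 having 0.714 times the value of C1 and A2 1.39 times that of A1. The log2 fold change was -1.09 ± 0.26 (SE, adjusted p = 0.00840), just past the limit on size. The call did not hold under 5 of the 15 alternatives, more than for any other of the 7 genes called. It was lost when C1 was left out (-0.85, adjusted p = 0.0614), when A1 was left out (-0.85, adjusted p = 0.146) and when A2 was left out (-1.33, adjusted p = 0.0830). Scaling the libraries to equal totals gave -0.62 (adjusted p = 0.0814) and quantile normalization gave -0.36 (adjusted p = 0.258), while the median of all tested genes shifted by 0.47 and by -0.28 under these scalings.

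S1pr1 fell less than the endothelial markers did. The log2 fold change of S1pr1 was 1.82 above the median of the 12 endothelial markers, and 1.76 above that of either Pecam1, the gene for CD31, or Cdh5, the gene for VE-cadherin. Within each library, a ratio that does not depend on how libraries were scaled, S1pr1 had 0.449 and 0.303 times the normalized counts of Pecam1 in the control libraries, against 0.793 and 1.96 in A1 and A2. The ratio was higher in both tamoxifen libraries, and highest in A2, the library with the lowest endothelial sum. Pecam1 is itself among the 12 markers of that sum, so the ratio and the sum are not independent. Astrocytes also express S1pr1, and its ratio to each of the 7 astrocyte markers was lower in both tamoxifen libraries, from 11.2 and 5.45 in controls to 0.337 and 0.228 against the glutamate transporter Slc1a3.

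S1pr2 (chr9:20873657-20914139, minus strand) was close to the bottom of the 8 genes in control cells, with 86.3 and 161 normalized counts in C1 and C2. It reached 1354 in A1 and 1173 in A2, so that the lowest tamoxifen library was far above the highest control library. The log2 fold change was 3.40 ± 0.33 (SE, adjusted p = 0.000116). Of all tested genes, 13.3% had a larger log2 fold change. With A1 left out the log2 fold change was 3.30 (adjusted p = 0.0562) and with A2 left out 3.51 (adjusted p = 0.0565), and the call was lost in both cases although the size was nearly the same.

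S1pr3 (chr13:51561702-51576833, plus strand) was intermediate, with 907 and 1591 normalized counts in C1 and C2 and 2993 and 3901 in A1 and A2. The groups did not overlap, and the log2 fold change was 1.51 ± 0.27 (SE, adjusted p = 0.00219). The call was lost without A1 (1.70, adjusted p = 0.100) and without A2 (1.32, adjusted p = 0.147). Because S1pr2 rose more than S1pr3, the ratio of S1pr3 to S1pr2 within a library fell from 10.5 and 9.85 in controls to 2.21 and 3.32 after tamoxifen. Pericytes and smooth muscle also express S1pr3.

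The starts of S1pr2 and S1pr3 are shown because these receptors rose together from different levels. Each window runs from 250 bases before to 50 bases after a RefSeq gene start (table built on GRCm38.p6), and was located by an exact and single match in GRCm39. The window for S1pr2 is chr9:20888040-20888339 on the minus strand, with a start 12 bases from the canonical one, and that for S1pr3 is chr13:51562404-51562703 on the plus strand, with a start 21 bases from the canonical one. Capitals mark 3 motifs searched on both strands, none of which overlap here. They are an E-box of the kind bound by SNAI factors (CAGGTG or CACCTG), a core bound by ETS factors such as ERG (CCGGAA or TTCCGG) and a box of the kind bound by KLF factors (CACACCC or GGGTGTG).
S1pr2: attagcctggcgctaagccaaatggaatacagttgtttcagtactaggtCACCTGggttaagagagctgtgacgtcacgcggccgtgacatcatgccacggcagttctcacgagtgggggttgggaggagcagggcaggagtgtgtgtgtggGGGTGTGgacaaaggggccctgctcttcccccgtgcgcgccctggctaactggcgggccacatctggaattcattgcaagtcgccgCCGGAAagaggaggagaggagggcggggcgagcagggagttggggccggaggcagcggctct
S1pr3: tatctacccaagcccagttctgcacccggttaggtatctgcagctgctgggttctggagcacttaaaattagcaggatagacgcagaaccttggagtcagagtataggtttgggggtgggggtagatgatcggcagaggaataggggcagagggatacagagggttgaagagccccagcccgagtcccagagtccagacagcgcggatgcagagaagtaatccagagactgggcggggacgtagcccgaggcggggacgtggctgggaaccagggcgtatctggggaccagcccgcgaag
The S1pr2 window held 1 of each motif and 18 CpG dinucleotides, and the S1pr3 window held none of the motifs and 14 CpG. Among all 32851 windows of the table, 20.2% held the E-box, 14.9% the ETS core and 7.95% the KLF box, and the median CpG count was 7. These matches describe the letters only. S1pr1 had no entry in the table.

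To compare levels between genes, normalized counts were divided by the length of the longest annotated transcript in kb, and each receptor was expressed as a share of the 5 receptor genes. S1pr1 made up 93.7% and 88.2% of this sum in C1 and C2, and 77.3% and 81.1% in A1 and A2. The share of S1pr3 went from 1.83% and 4.22% to 14.8% and 14.5%, and that of S1pr2 from 0.103% and 0.255% to 3.96% and 2.59%. S1pr1 thus remained the largest part of the receptor RNA in each library, and the shares of S1pr2 and S1pr3 were higher in both tamoxifen libraries than in either control. The receptor S1pr4, known mainly from blood cells, made up 4.33% and 7.30% in controls and 3.85% and 1.72% after tamoxifen, so its groups did not overlap but lay close to each other. Its normalized counts fell after tamoxifen (log2 fold change -2.01), whereas the erythroid, neutrophil and lymphocyte lists rose. S1pr5 also had a higher share after tamoxifen, 0.127% and 0.0955% against 0.00730% and 0.00439%, and was the smallest of the 5 in each library.

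**Figure D2:**
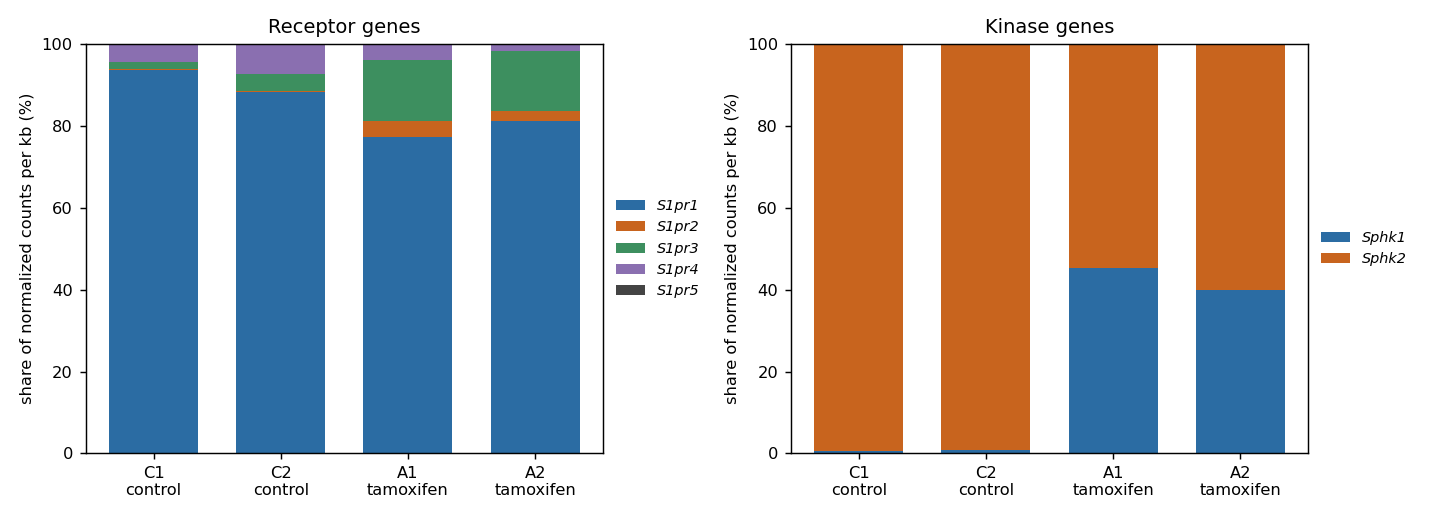
Share (y axis, percent) of each gene in the summed normalized counts per kb of the 5 S1P receptor genes (left) and of both kinase genes (right), in control libraries C1 and C2 and tamoxifen libraries A1 and A2. S1pr1 fills most of each left bar, with S1pr3 at 14.8% and 14.5% in A1 and A2, and Sphk1 goes from 0.504% and 0.853% of the kinase sum in C1 and C2 to 45.4% and 40.0% in A1 and A2.

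The kinases showed the widest contrast. Sphk1 (chr11:116421751-116427501, plus strand), which encodes the mostly cytosolic enzyme, was nearly undetected in control cells, with 3 reads in C1 and 6 in C2. It had 474 reads in A1 and 505 in A2. In normalized counts these are 4.11 and 7.51 against 514 and 363, and the groups were far apart. The log2 fold change was 6.04 ± 0.52 (SE, adjusted p = 7.72e-05), on a log2 scale with 1 added to each value, and 2.32% of tested genes had a larger one. From the pooled reads, the level was 71.9 times higher after tamoxifen, with an exact 95% interval of 37.7 to 158 that covers counting error only. The call held under each of the 15 alternatives, among which the log2 fold change ranged from 4.85 to 6.47.

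Sphk2 (chr7:45358891-45367426, minus strand), which encodes the kinase found in the nucleus and mitochondria, had 1479 and 1592 normalized counts in C1 and C2 and 1127 and 994 in A1 and A2. The tamoxifen libraries were both lower, by a log2 fold change of -0.54 ± 0.17 (SE) with an adjusted p of 0.0253. It was not counted as differentially expressed, since the size was under the limit, and by the adjusted p alone, which 58.9% of tested genes passed, it would be. Scaled to equal totals the log2 fold change was -0.07 (adjusted p = 0.719). Exons of Rpl18 on the opposite strand overlap 30.9% of the Sphk2 exons and those of Dbp 7.24%, and the strand setting of the counting is not given in the sources used here, so reads of these genes may be shared.

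Within a library, Sphk1 had 0.00278 and 0.00472 times the normalized counts of Sphk2 in controls and 0.456 and 0.365 times in A1 and A2. Per kb of the longest transcript, its share of both kinases was 0.504% and 0.853% in controls and 45.4% and 40.0% after tamoxifen. The transcript of Sphk2 used for this matters, since the canonical one is 3548 bases and the longest 7412. With canonical lengths the mean share of Sphk1 was 0.351% ± 0.128 (SD, n = 2) in controls and 27.8% ± 3.14 (SD, n = 2) after tamoxifen.

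The starts of the kinase genes are shown because their RNA levels were far more unequal in controls than after tamoxifen. The Sphk1 window, chr11:116422413-116422712 on the plus strand, has a start 10 bases from the canonical one, and the Sphk2 window, chr7:45367377-45367676 on the minus strand, has the canonical start. Capitals mark the same motifs.
Sphk1: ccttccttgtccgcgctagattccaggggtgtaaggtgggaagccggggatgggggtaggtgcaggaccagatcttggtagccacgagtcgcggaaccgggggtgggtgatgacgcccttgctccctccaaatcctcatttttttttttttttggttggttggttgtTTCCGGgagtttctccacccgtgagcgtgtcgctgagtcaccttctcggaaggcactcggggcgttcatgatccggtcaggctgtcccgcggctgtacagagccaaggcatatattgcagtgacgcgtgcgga
Sphk2: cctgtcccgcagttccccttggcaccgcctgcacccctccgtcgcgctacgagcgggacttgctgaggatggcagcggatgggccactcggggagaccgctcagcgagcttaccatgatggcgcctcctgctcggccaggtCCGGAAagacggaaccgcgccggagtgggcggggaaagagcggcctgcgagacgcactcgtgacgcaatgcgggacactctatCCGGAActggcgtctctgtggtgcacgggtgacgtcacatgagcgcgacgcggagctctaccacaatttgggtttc
The Sphk1 window held 1 ETS core and 21 CpG dinucleotides, and the Sphk2 window held 2 ETS cores and 33 CpG, more than 91.4% of all windows. Neither held the E-box or the KLF box. A second Sphk2 window, 2795 bases from the canonical start, held 1 KLF box. Of 4 further Sphk1 windows, 84 to 727 bases from the canonical start, 1 overlaps the window shown and held the same ETS core, and the other 3 held none of the motifs. The window of Sgpl1 held 1 ETS core and 38 CpG, and that of Plpp3 none of the motifs and 11 CpG.

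Spns2 (chr11:72342463-72380840, minus strand), the transporter through which endothelial cells release S1P, had 6009 and 6958 normalized counts in C1 and C2. It had 1903 in A1 and 1098 in A2. Both tamoxifen libraries were lower, A2 more so than A1, and the log2 fold change was -2.16 ± 0.25 (SE, adjusted p = 0.000269), lower than that of 94.3% of tested genes. The call was kept under all 15 alternatives, with log2 fold changes of -2.56 to -1.69. The fall was 0.75 smaller on the log2 scale than the median of the endothelial markers, and smaller by 0.69 than that of Pecam1. Relative to Pecam1 within a library, Spns2 stood at 0.0718 and 0.0784 in controls and at 0.119 and 0.122 after tamoxifen, so that Spns2 per Pecam1 was higher and nearly equal in A1 and A2. Of the 8 genes, Spns2 was the nearest to the endothelial markers in its fold change.

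Among the 8 genes, both whose products end the signal were higher after tamoxifen. Of the phosphatase genes outside the 8, Sgpp2 (-3.74) and Plpp1 (-1.37) were called lower, Plpp2 (3.86) was called higher and Sgpp1 (-0.14) was not called. Sgpl1 (chr10:60934421-61011826, minus strand), which encodes the lyase, had 1889 and 1995 normalized counts in C1 and C2 and 4141 and 4201 in A1 and A2. The replicates were closer to each other than for any other of the 8 genes. The log2 fold change was 1.10 ± 0.15 (SE, adjusted p = 0.000461), close to the size limit but kept under all 15 alternatives, with a range of 1.06 to 1.57.

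Plpp3 (chr4:105014421-105089964, plus strand), which encodes the phosphatase that acts on S1P and lysophosphatidic acid outside the cell, had 3609 and 4344 normalized counts in C1 and C2. It had 16320 in A1 and 32322 in A2, which is 1.98 times the value in A1. Both were above the controls, and the log2 fold change was 2.54 ± 0.31 (SE, adjusted p = 0.000300), kept under all 15 alternatives (2.04 to 3.19). Astrocytes express Plpp3 strongly, and its ratio to the 7 astrocyte markers within a library was mixed. It was lower in both tamoxifen libraries for 5 markers, such as Slc1a3 (1.08 and 0.881 in controls, 0.433 and 0.418 after tamoxifen). Among these the gap was narrow for Slc1a2 (0.327 and 0.240 against 0.235 and 0.208) and Aldoc (2.13 and 1.53 against 1.28 and 1.49). The ratio was higher for Gja1 (0.303 and 0.597 against 0.817 and 0.915) and overlapping for Gfap (24.0 and 13.8 against 17.1 and 15.6).

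**Figure D3:**
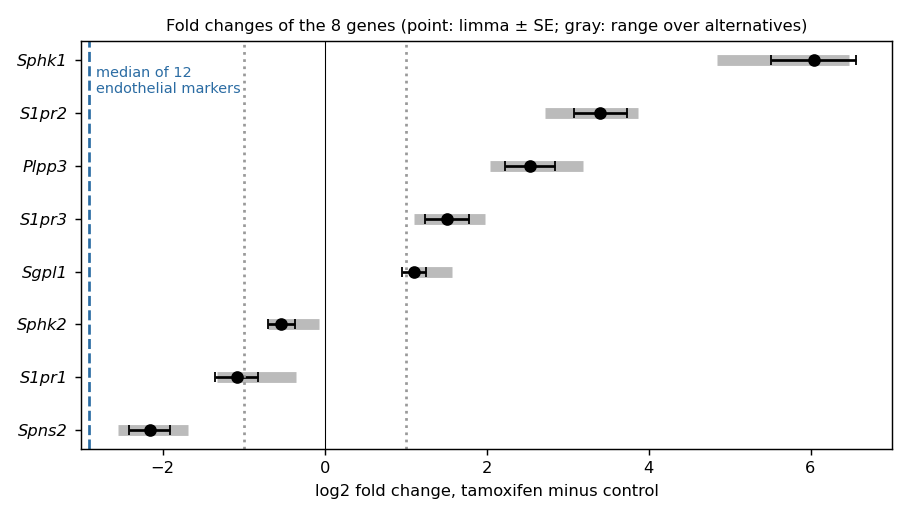
Log2 fold change (x axis, tamoxifen minus control, on log2 of the normalized count plus 1) of each of the 8 genes. Points are limma estimates with SE, gray bars span the 15 alternatives, dotted lines mark the size limit of 1 in each direction and the dashed line is the median of 12 endothelial markers at -2.91; all 8 points lie to the right of it, Spns2 nearest at -2.16 and Sphk1 farthest at 6.04.

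Per kb of the longest transcript, the order of the 8 genes differed between the groups. In controls S1pr1 led with 8933 ± 2105 normalized counts per kb (SD, n = 2), above Spns2 at 1139 ± 118 and Plpp3 at 1111 ± 145, whose libraries overlapped. Sgpl1 followed at 445 ± 17.2, then S1pr3 at 280 ± 108 and Sphk2 at 207 ± 10.8, which overlapped as well, then S1pr2 at 16.5 ± 7.08 and Sphk1 at 1.43 ± 0.592. The exporter and the receptor S1pr1 thus stood at the top in controls, together with Plpp3. After tamoxifen Plpp3 led at 6792 ± 3160 and overlapped S1pr1 at 4199 ± 969. Below these came Sgpl1 at 956 ± 9.74, S1pr3 at 772 ± 144, Spns2 at 264 ± 99.9, S1pr2 at 168 ± 17.0, Sphk2 at 143 ± 12.7 and Sphk1 at 108 ± 26.2, without overlap between neighbors. Spns2 went from rank 2 to rank 5, and Plpp3 from rank 3 to rank 1. With the union of exons as length, Plpp3 stood above Spns2 in controls and S1pr3 above Sgpl1 after tamoxifen. With canonical transcript lengths Sphk2 stood above S1pr3 in controls, and with either length it stood above S1pr2 after tamoxifen. Within a library, Plpp3 had 0.0960 and 0.162 times the normalized counts of S1pr1 in controls and 1.29 and 1.83 times after tamoxifen.

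The 2 tamoxifen libraries differed from each other, and the S1P genes differed with them. Between A1 and A2 the astrocyte and mural marker lists were higher in A2, by medians of 1.04 and 1.02 on the log2 scale, and the endothelial list was lower in A2 by a median of -0.97. Plpp3 (0.99), S1pr1 (0.47) and S1pr3 (0.38) were higher in A2. Spns2 (-0.79) and Sphk1 (-0.50) were lower in A2, beside medians of -0.51 for the erythroid and -0.45 for the neutrophil list. S1pr2 (-0.21), Sphk2 (-0.18) and Sgpl1 (0.02) differed little. Between the control libraries, S1pr2 (0.90), S1pr3 (0.81) and Sphk1 (0.74) were higher in C2, as were the mural (median 0.92), erythroid (0.78) and astrocyte (0.71) lists, while S1pr1 (-0.49) was lower and the endothelial list was level at 0.04. S1pr3, Plpp3 (0.27 between the controls) and the mural, astrocyte and neuron lists (neuron medians 0.19 and 0.76) were higher in C2 than in C1 and in A2 than in A1. Sgpl1 had the same signs, with small differences (0.08 and 0.02). The microglia and macrophage list was higher in C2 (0.96) and level between A1 and A2 (-0.05). The neutrophil list was lower in C2 by its median (-0.53), with Mpo alone of its markers higher there (0.93). Sphk1 was higher in C2, but on only 3 reads in C1 and 6 in C2. Each of these differences is between 2 libraries, has no replicate, and carries no test.

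**Figure D4:**
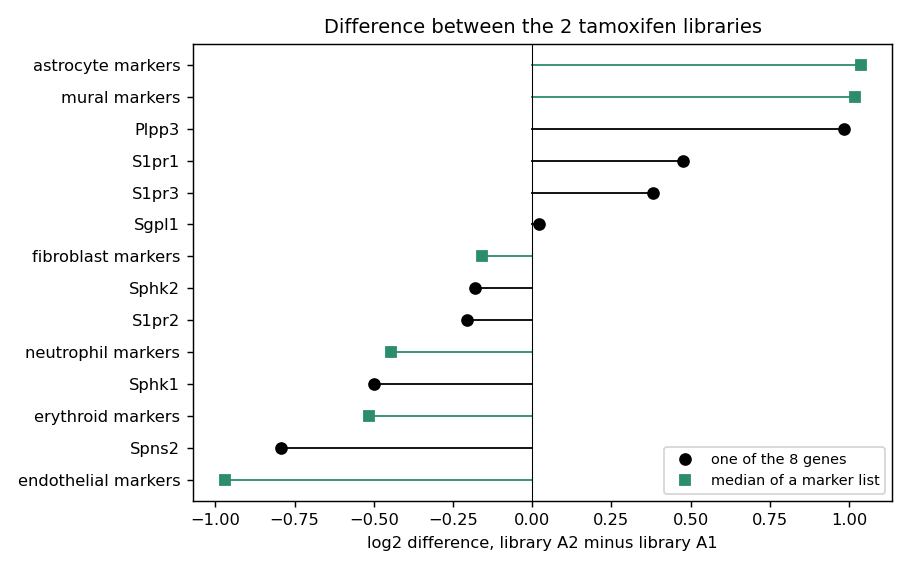
Log2 difference between the 2 tamoxifen libraries (x axis, A2 minus A1) for each of the 8 genes (black circles) and for the median of 6 of the 11 marker lists (green squares). Plpp3 lies next to the astrocyte and mural lists at the right, and Spns2 next to the endothelial list at the left.

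The genes with the most similar profile over the 4 libraries were found by the root mean square difference of the centered log2 values, among 7721 or 7722 candidates that averaged 1000 or more normalized counts. For S1pr3 the closest was Notch3 (0.0604), a receptor of mural cells, followed by Arhgef17 (0.0717) and Gramd1b (0.129). For Sphk1 it was Lyz2 (0.0267), which encodes the lysozyme of myeloid cells, with 104 and 175 normalized counts in controls and 10957 and 7827 in A1 and A2, followed by Igf2bp2 (0.0819) and Msln (0.0827). For S1pr2 it was Mrc2 (0.0490), a collagen receptor, then Scd1 (0.0522) and Ptk7 (0.0640). These measures rest on 4 libraries. The control values of Sphk1 rest on 3 reads in C1 and 6 in C2, so the order of its closest genes is uncertain. Which cells the RNA of these genes came from was not tested. The mural list had a median log2 fold change of 0.68, beside 1.51 for S1pr3, with 2 of its 8 markers above both controls. S1pr1 was nearest to Zkscan3 (0.0418), Cep85l (0.0784) and Pik3r3 (0.0926), and Plpp3 to Gpld1 (0.0785), Kif1a (0.0837) and Dkk3 (0.0908). Spns2 was nearest to Adamtsl2 (0.0142), Pwwp2b (0.0214) and Impdh1 (0.0230), Sgpl1 to Hnrnpd (0.0146), Pfkp (0.0245) and Pfas (0.0389), and Sphk2 to Arl1 (0.00615), Upf1 (0.00819) and Zfp646 (0.0124).

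Beyond the 8 genes, 13 further genes of S1P handling were tested, of which 4 were higher, 4 lower and 5 not called, with a median log2 fold change of -0.14 beside 0.05 for all tested genes. Over all tested genes 44.7% were called, 28.6% higher and 16.0% lower, and the counts of this list and of the 3 lists that follow are given beside those shares as descriptions. Mfsd2b, the exporter of erythrocytes, had 192 and 193 normalized counts in controls and 1052 and 741 in A1 and A2 (2.19 ± 0.26 SE, adjusted p = 0.000260). Apom, the apolipoprotein that carries S1P in plasma, had 8 and 6 reads in controls and 37 and 63 after tamoxifen, with a ratio of 4.72 (exact 95% interval 2.69 to 8.95). With a control mean of 9.23, Apom passed the filter on low values only through the tamoxifen libraries. Mfsd2b was thus higher in A1 than in A2, as the erythroid markers were. Between the controls Mfsd2b was level, whereas the erythroid sum went from 16627 in C1 to 33680 in C2. The exporters Spns2 and Mfsd2b went in opposite directions after tamoxifen.

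Among the other receptors, S1pr4 fell from 1148 and 1471 normalized counts to 417 and 247 (-2.01 ± 0.28 SE, adjusted p = 0.000645). S1pr5 was called higher, with 2 and 1 reads in controls and 18 and 27 after tamoxifen, a ratio of 9.91 (exact 95% interval 3.18 to 49.9). Sgpp2, an intracellular S1P phosphatase, fell from 11311 and 9642 to 1292 and 471 (-3.74 ± 0.40 SE, adjusted p = 0.000182), and Plpp1 fell from 1752 and 1832 to 741 and 643 (-1.37 ± 0.17 SE, adjusted p = 0.000345). Plpp2 rose from 43.8 and 46.3 to 763 and 582 (3.86 ± 0.33 SE, adjusted p = 7.40e-05), while Sgpp1 overlapped between groups (-0.14, adjusted p = 0.532). Plpp3 and Plpp2 therefore went one way and Plpp1 the other within 1 family.

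Of the ceramidases, which release sphingosine, Acer2 fell from 9624 and 7875 normalized counts to 2121 and 653 (-2.89 ± 0.46 SE, adjusted p = 0.00122). Acer3 (0.73) and Asah1 (0.74) passed the adjusted p alone but not the size limit, Asah2 (-0.37, adjusted p = 0.163) did not pass, and Aldh3a2, which acts on a product of the lyase, was at -0.77 (adjusted p = 0.00322) and below the size limit. Acer1 is not listed in the table. Leaving out A2 reduced the number called among the 13 genes from 8 to 5, of which 2 were higher, and a filter at a mean of 100, which S1pr5 and Apom did not pass, left 2 higher.

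Of 23 tested genes of sphingolipid synthesis, 4 were higher, 6 lower and 13 not called (median -0.46), a share called near the 44.7% of all tested genes. Cers6 (4.56 ± 0.23 SE) and Cers1 (3.75 ± 0.39 SE) rose most, from control means of 77.8 and 30.8 normalized counts. Both encode ceramide synthases, a family that did not rise as a whole. Cers4 was called lower (-1.39), and Cers2 (-0.62) and Cers5 (-0.54) were not called. Degs2, a dihydroceramide desaturase and hydroxylase (-4.64 ± 0.53 SE), and Sgms1, a sphingomyelin synthase with 52184 and 50496 normalized counts in controls and 7329 and 3413 in A1 and A2 (-3.36 ± 0.33 SE), fell most. Without A1 or without A2 the number higher was 2, with equal totals the number lower was 3, and by the adjusted p alone it was 12.

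Among 12 G protein genes and receptor regulators, 2 were higher, 4 lower and 6 not called (median -0.16), also close to the share over all tested genes. Both arrestins, which draw receptors from the surface, rose, Arrb1 by 1.46 ± 0.17 (SE) and Arrb2 by 1.24 ± 0.16 (SE). Klf2, a flow-responsive transcription factor of endothelium that induces S1pr1, fell by 2.34 ± 0.37 (SE), and Gnai2, a Gi subunit through which S1PR1 signals, fell by 1.38 ± 0.27 (SE). Both fell less than the endothelial markers, whose median was -2.91, and a link between Klf2 and the level of S1pr1 was not tested. The other Gi subunits Gnai1 (0.61, adjusted p = 0.0518) and Gnai3 (0.11, adjusted p = 0.585) were not called. The subunits Gnaq (-1.01, adjusted p = 0.000999) and Gna11 (-1.30, adjusted p = 0.000728) were called lower, and Gna12 (-0.42) and Gna13 (0.41) were not called. The number lower was 1 with equal totals, 1 with quantile normalization and 2 without A2.

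Lysophosphatidic acid is another substrate of PLPP3. Of 7 tested genes of its receptors and synthesis, 4 were higher and 2 lower, beside 28.6% and 16.0% of all tested genes, with a median log2 fold change of 3.74. The receptor Lpar3 had 1 and 7 reads in controls and 93 and 181 after tamoxifen, a ratio of 22.6 (exact 95% interval 11.3 to 53.0), and Lpar5 had none and 6 reads against 80 and 83, a ratio of 18.0 (exact 95% interval 8.07 to 49.6). Both passed the filter on low values only through the tamoxifen libraries, with control means of 5.07 and 3.75. Lpar6, the receptor of this family with the most reads in control cells, fell by 2.74 ± 0.16 (SE), and Lpar4 fell by 1.48 ± 0.21 (SE). Enpp2, the gene for the enzyme autotaxin that makes the lipid, stood at 5757 and 5948 normalized counts in controls, 7083 in A1 and 23355 in A2, and did not pass the test (adjusted p = 0.0687). Without A2 the number higher was 2, and the count over all genes fell as well.

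**Figure D5:**
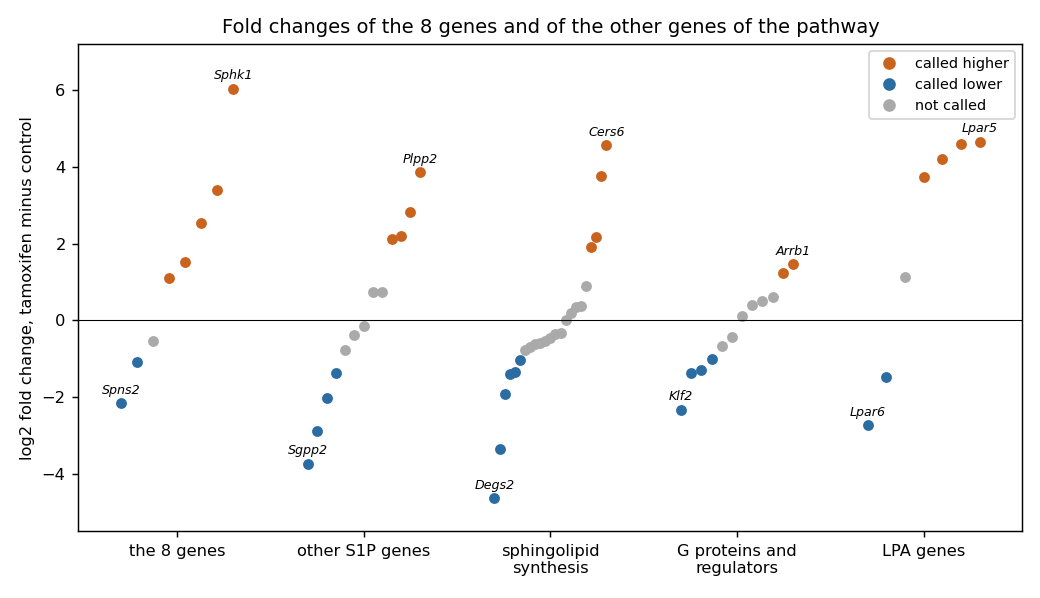
Log2 fold change (y axis, tamoxifen minus control) of the 8 genes and of the tested genes of 4 further lists, each point 1 gene, ordered by value within its list. Orange points were called higher, blue points lower and gray points not called, and the named points are the lowest and highest of each list, from Degs2 at -4.64 to Sphk1 at 6.04.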

How the data were processed

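Libraries were prepared with the KAPA Stranded mRNA-Seq kit. The authors aligned reads to GRCm39 (STAR 2.7.10a), removed low-count genes and then used DESeq2 1.36.0 for normalization. The annotation release, the strand setting and the low-count limit are not given in the sources used here. The table the authors deposited holds a signal per gene, the read count after division by a library-wide factor. Dividing each library by its smallest step gave back whole reads for 100% of values, within 0.01 read. Sample labels gave the groups (control and treated), and the letters of the columns were matched to them, C as control and A as the tamoxifen group.

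The test was limma 3.58.1 (R 4.3.3) on log2(normalized count + 1), with a mean-variance trend and Benjamini-Hochberg adjustment over the 20485 genes averaging at least 10. A call needed an adjusted p below 0.05 and a log2 fold change beyond 1 in either direction. With 2 against 2 libraries, exact permutation of the libraries cannot give a two-sided p below 0.333 for a single gene, so none is given. P-values measure the spread between these libraries, each a pool of mice. A simulation with a fixed dispersion and few changed genes, split evenly between rises and falls, was also run. It does not match these libraries, where 44.7% of tested genes were called, and so gives no check on these calls. The floor was 3 reads, and intervals cover counting error only.

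Gene positions, lengths and overlaps came from GENCODE M39 on GRCm39, and promoter windows from RefSeq, with 7 of the 8 genes matched. The members and lists were chosen with earlier results of these data known. Named were the 8 genes, each gene of the first further list, and from each other list the 2 largest rises and the 2 largest falls among called genes, plus those a sentence on the pathway needs, and the 3 genes with the most similar profile per member (excluding symbols that start with Gm or end with Rik). As alternatives, the pseudocount was set to 0.5 or 5, the filter was dropped or raised to a mean of 100, and libraries were scaled to equal totals or by quantiles. The trend was dropped, the replicate number entered as a block, single libraries were left out, and calls were made on the adjusted p alone. The recovered reads were also tested with DESeq2 1.42.0 and edgeR 4.0.16. Canonical transcript lengths were added after the values had been seen.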

Additional observations from a re-analysis of the deposited data

How the results depend on the processing

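Each call was recomputed under 15 alternatives. No gene of the 8 changed direction under any of them, and Sphk1, Spns2, Sgpl1 and Plpp3 kept their calls under all. Changing the filter, the trend, the block or the call rule leaves a gene's fold change as it was. Direction therefore could not change under these, and the adjusted p alone cannot remove a call. On recovered reads edgeR called 9241 genes and DESeq2 8739, against 9151 with limma, and both called the same number of the 8 genes, 7. With equal totals the number called lower fell from 3284 to 1838, and among the 8 genes from 2 to 1, with S1pr1 at -0.62. Quantile normalization gave 5509 lower and again 1 of the 8, with S1pr1 at -0.36. A filter at a mean of 100 left 5934 called, 3540 of them higher, because fewer genes were tested, and the adjusted p alone gave 5228 lower and added Sphk2 (-0.54). Leaving out a library left 4147 to 9700 genes called (2553 to 6163 higher and 1594 to 3537 lower), and 4 to 7 of the 8 genes (3 to 5 higher and 1 to 2 lower). The log2 fold changes then ranged from -1.33 to -0.85 for S1pr1, from 2.96 to 3.85 for S1pr2 and from 1.10 to 1.91 for S1pr3. The cause of the losses of calls with a library left out was not tested, but those fits have 3 libraries, and the lone library of a group is assumed to vary like the other group. Library numbers are shared by the groups, but C1 and A1 did not deviate together (r = 0.0251 over 20485 genes), so the numbers were not taken as pairs. With the replicate block 9525 genes and 7 of the 8 were called. Depth limits Sphk1, S1pr5, Lpar3 and Lpar5, which had few reads in controls.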
